A study of Mus musculus with 21 samples.

Results

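Interleukins and interleukin receptors left after the main genes of the IL-1, IL-4/IL-13/IL-33 and IL-6 systems were set aside were examined in lung RNA of 21 mice. Some genes of those systems stayed in, among them Il1rl2, Il18rap, Il1rapl2 and Il13ra2. The members were the 41 genes, of 770 on the panel, whose probe name is Il followed by a digit, after 18 genes of those systems and of the IL-7 receptor had been set aside. They comprised 21 ligands and 20 receptor chains or decoy receptors. The choice used gene names only, not counts. All 41 matched a gene in RefSeq's list for the mouse.

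The lungs were those of A/J mice of both sexes, an inbred line that readily develops lung tumors, which arrived at 8 to 12 weeks of age and were exposed through the nose 3 times a week for 24 weeks. Each dose was 50 µL of phosphate-buffered saline or of 12.5% HDE (hog dust extract, an aqueous extract of dust from swine confinement barns), and some had also received 1 intraperitoneal injection of NNK at 100 mg/kg in week 4, a carcinogenic nitrosamine found in tobacco, while the others were injected with saline. The groups were saline only (n = 6), HDE only (n = 4), saline + NNK (n = 6) and HDE + NNK (n = 5), with 1 library per animal. No gene was altered in any of them. The study combined a preliminary and a later experiment, and control mice of the later one also received ethanol in saline by tail vein. Which of the mice measured here received this vehicle was not given. Tumors had been removed from the left lung before RNA was taken, and airspace cells had been washed from the lungs beforehand, so neither is fully represented in this whole-tissue RNA.

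Interleukins are secreted proteins by which immune, epithelial and stromal cells signal to each other, most of them through receptors made of a cytokine-specific chain and a chain shared between several cytokines. Chains of the common gamma group, with their ligands such as IL-2, IL-7, IL-15 and IL-21, act on lymphocytes, while the IL-12 and IL-17 families shape T helper responses and the IL-10 family restrains inflammation or acts on epithelium. In the lung, receptors are often carried in quantity by resident cells, whereas many of the ligands come from few activated lymphocytes and are transcribed briefly.

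Counts came from the nCounter system, which tags single transcripts with color-coded probes and counts the tags with no amplification step. Library totals ran from 174604 to 529829 counts. The 8 negative control probes, which have no target, gave 2 to 40 counts. Libraries were read in 2 runs named in the column headers. Whether the runs match the preliminary and later experiments was not given, so run and experiment cannot be told apart. The limit of detection was set for each library as the mean + 2 SD of its negative controls. It was 28.6 to 43.7 counts in run 1 (6 HDE and 6 saline libraries) and 13.1 to 27.0 counts in run 2 (3 HDE and 6 saline libraries). The sex of a mouse was given with a further table that does not name the run, so sex within a run could not be taken into account. Sex was uneven between the mice without NNK, with 3 males and 1 female among HDE only and 1 male and 5 females among saline only mice, and more even with NNK (2 males and 3 females with HDE, 3 and 3 with saline). Scaling used 4 housekeeping genes (Eef1g, Sdha, Oaz1 and Rpl19), whose geometric mean was set equal in all libraries. This mean averaged 1015 counts in HDE and 1428 in saline libraries, so scaling raised HDE libraries as a whole, background included. Scaled alike, the negative controls averaged 26.8 ± 14.7 (SD, n = 9) in HDE and 17.6 ± 6.59 (SD, n = 12) in saline libraries, which is 0.60 on the log2 scale. The difference was 0.64 within run 1 and -0.15 within run 2. These values bear on each gene with low counts. Probes differ in binding, so counts of different genes were not compared with each other.

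Most of these genes lay at or near background in lung. The members with a mean raw count of 87 or more, the minimum used in the study, were 3: Il17ra (127.8), Il34 (115.1) and Il2rg (93.9). This was 7.32% of members, against 50.9% of all panel genes. The raw count of 14 members, 34.1%, exceeded the limit in 11 or more of the 21 libraries, against 72.7% of panel genes. Of these 14, Il17ra, Il34, Il2rg, Il16, Il1rl2 and Il7 did so in all 21 libraries. Il2rb and Il10ra exceeded it in 20, Il3ra in 18, Il12rb2 in 17, Il2ra in 15, Il15ra in 13, and Il10 and Il21r in 11. Receptors made up 10 of the 14 and ligands 4. By family, 6 of 10 common gamma chain members were over the limit in 11 or more libraries, 2 of 7 of the IL-10 family, and 1 each of 7 in the IL-12 family, 6 in the IL-17 family, 3 in the common beta chain group and 3 remaining IL-1 family genes. Of 5 genes in no such family, Il16 and Il34 were over it.

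**Figure D1:**
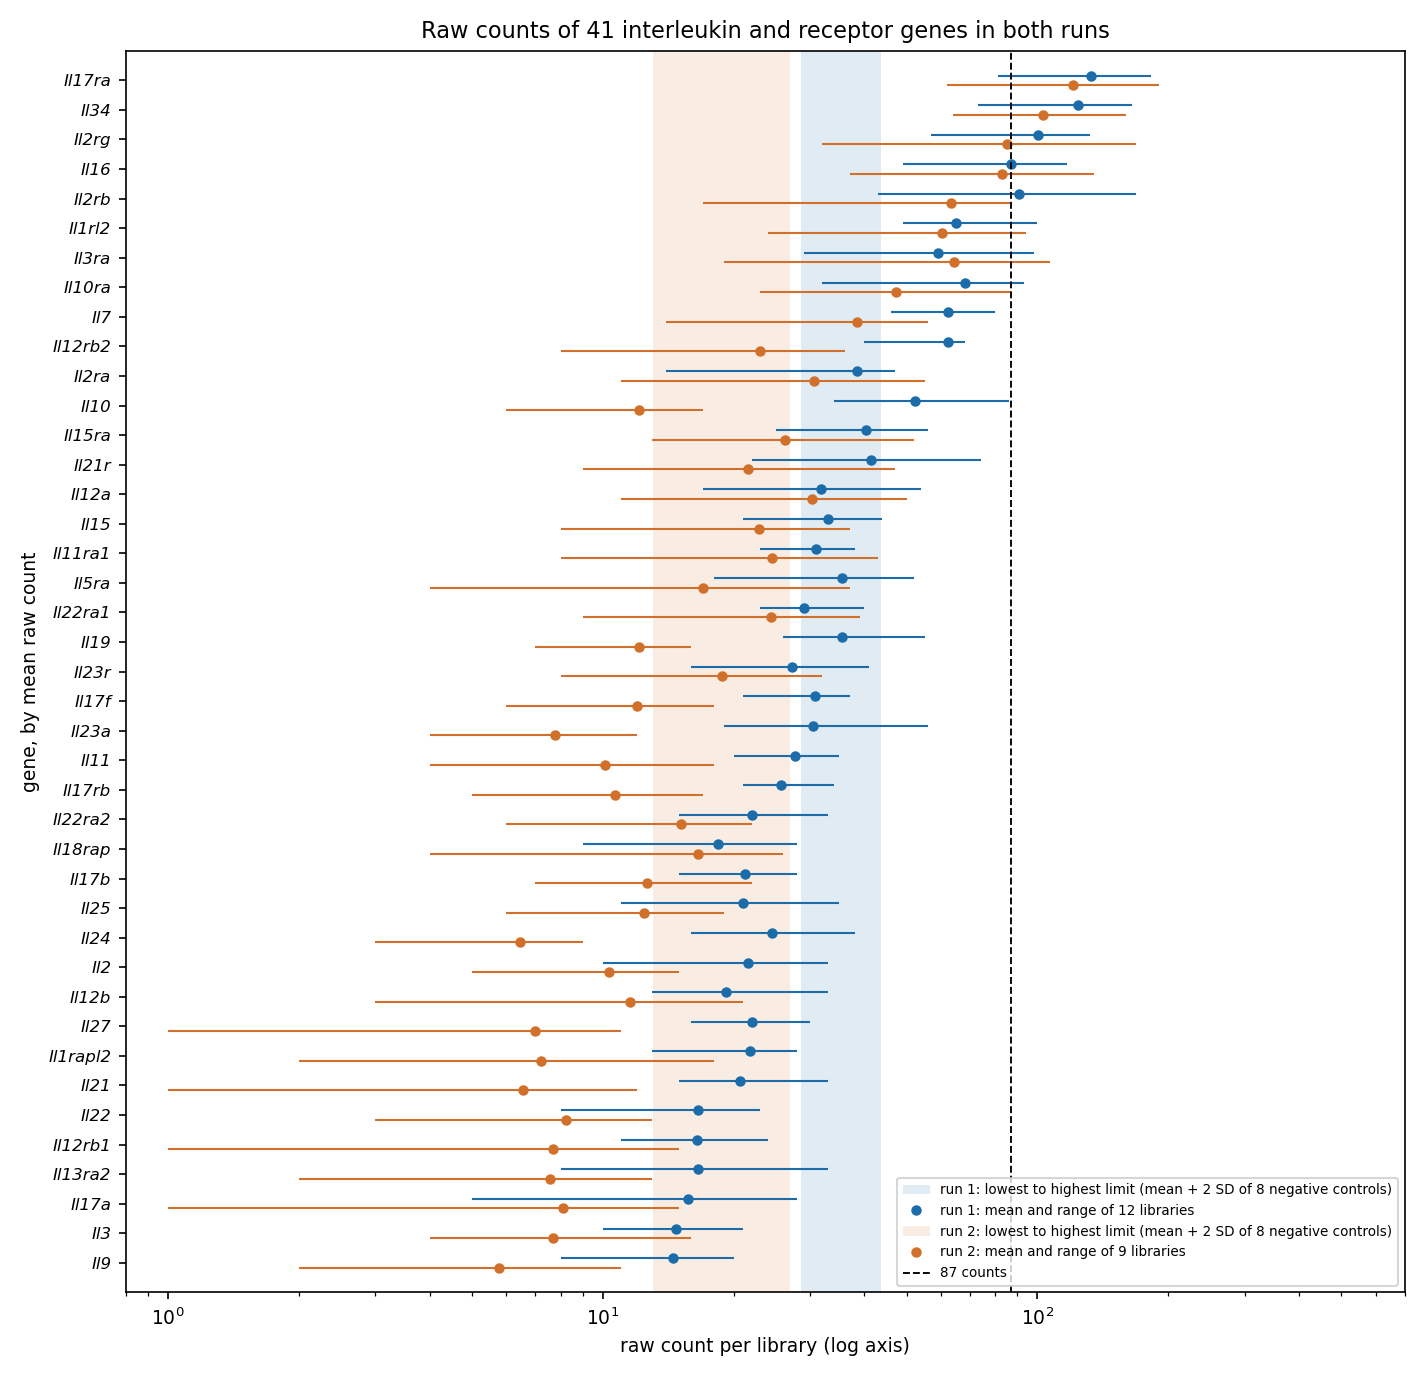
Raw counts of the 41 genes on a log axis, with the mean (point) and range (line) of the 12 libraries of run 1 and the 9 libraries of run 2. Shaded bands span the detection limits of each run, and the dashed line marks 87 counts, which the means of 3 genes over all libraries reach.

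Another 11 members exceeded the limit in 1 to 10 libraries. These were Il15 in 10, Il12a in 9, Il22ra1 in 8, Il5ra and Il11ra1 in 7, Il19 in 5, Il23r in 4, Il17f, Il23a and Il18rap in 2, and Il11 in 1. The other 16 exceeded it in 0 libraries. They included the signature ligands of activated T helper cells, Il17a (raw counts 1 to 28), Il21 (1 to 33), Il22 (3 to 23), Il2 (5 to 33), Il3 (4 to 21) and Il9 (2 to 20), and the myeloid subunits Il12b (3 to 33) and Il27 (1 to 30). The remaining ones were the ligands Il17b (7 to 28), Il25 (6 to 35) and Il24 (3 to 38) and the receptors Il17rb (5 to 34), Il22ra2 (6 to 33), Il12rb1 (1 to 24), Il1rapl2 (2 to 28) and Il13ra2 (2 to 33). At this depth their transcripts were not detectable in any of the 4 groups. Probe counts moved with the run. The negative controls averaged 24.3 counts in run 1 and 12.4 in run 2, single control probes differing 1.38- to 2.87-fold between runs, and 7 members, led by Il10 (4.33-fold), Il23a (3.92-fold) and Il24 (3.80-fold), lay above this range.

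HDE against saline was the main comparison, averaged over mice without and with NNK. With the minimum of 87 counts, Il17ra and Il34 were higher in HDE-exposed lungs and Il2rg did not pass. The edgeR quasi-likelihood test with Benjamini-Hochberg adjustment called 49.5% of the 388 genes tested, 39.4% higher and 10.1% lower, and 3 members are too few to set against these shares. A wider fit took in all 556 genes over the detection limit in 11 or more libraries. It called 49.1% of genes, 41.7% higher and 7.37% lower, and among the 14 members 7 higher and 0 lower. These were Il17ra, Il34, Il16, Il7, Il1rl2, Il21r and Il2rb. The median log2 fold change was 0.54 over the 14 members and 0.28 over all 556 genes. By family, 3 of 6 tested common gamma chain members were higher, as were Il17ra of the IL-17 family, Il1rl2 of the IL-1 family, and both Il16 and Il34, while 0 of 2 in the IL-10 family, 0 of 1 in the IL-12 family and 0 of 1 in the common beta chain group passed. The filter needs 11 libraries, more than the 9 HDE libraries, but could be met by saline libraries alone. Il21r met it with just 11, of which 7 were HDE libraries, so its entry into this fit used the values that are compared. In whole lung, more cells of a type and more RNA per cell cannot be told apart.

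Of the ligands, Il34, which like CSF-1 signals through the CSF-1 receptor and supports tissue macrophages, had scaled counts of 76.0, 99.2 and 113.0 (lowest, median, highest) in the 6 saline only libraries and 87.7, 115 and 121 in the 6 saline + NNK libraries. The 4 HDE only libraries had 102, 117, 174 and 184, and the 5 HDE + NNK libraries 106, 129.9, 134, 148 and 206. All libraries of run 1 with HDE lay above all 12 saline libraries, while the 3 HDE libraries of run 2 overlapped them. Il34 rose by 0.48 on the log2 scale (SE 0.13, adjusted p = 0.0038 over 388 genes). In the wider fit the log2 difference was 0.57 (adjusted p = 0.0030) within run 1, and 0.17 (SE 0.19, adjusted p = 0.55) within run 2, where it did not pass. DESeq2 gave 0.28 (adjusted p = 0.015) over 388 genes and 0.19 (adjusted p = 0.096) over 556, so the call in the wider fit was lost there.

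Il16, a chemoattractant cytokine that binds CD4, showed scaled counts of 64.2, 78.5 and 87.1 (lowest, median, highest) with saline only and 53.7, 70.7 and 89.5 with saline + NNK. The HDE only libraries read 65.9, 106, 112 and 124, and the HDE + NNK libraries 101, 112, 114, 121 and 124. Of the 9 HDE libraries, 8 exceeded every saline library. The exception was the HDE only library of run 2 lane 12. The log2 fold change was 0.54 (SE 0.12, adjusted p = 0.00052 over 556 genes). Il16 passed within each run as well, with 0.52 (adjusted p = 0.0023) in run 1 and 0.66 (adjusted p = 0.035) in run 2, and it read nearly the same in both runs (ratio of raw means 1.05).

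Il7, a survival factor of lymphocytes made by stromal cells, had scaled counts of 23.4, 40.7 and 64.4 (lowest, median, highest) with saline only and 30.7, 45.1 and 67.9 with saline + NNK. The HDE only libraries had 39.2, 40.6, 95.6 and 116, and the HDE + NNK libraries 57.0, 61.5, 67.8, 84.8 and 99.7. Of the HDE libraries, 4 exceeded every saline library, and the 2 lowest, both HDE only of run 2, fell in the middle of the saline range. Il7 rose by 0.72 on the log2 scale (SE 0.23, adjusted p = 0.010). With run as a term the value was 0.59 (adjusted p = 0.0021), and within run 2 alone 0.51 (adjusted p = 0.17).

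Il10, the main cytokine that restrains inflammation, exceeded the detection limit in 11 of the 12 libraries of run 1 and in 0 of the 9 of run 2. Its raw counts in run 1 were 34 to 86 with HDE and 43 to 51 with saline, and in run 2 they were 6 to 13 and 8 to 17. The 2 highest raw counts, 75 and 86, belonged to HDE + NNK libraries, and the HDE only libraries of run 1, at 34 and 44, did not exceed saline before scaling. Over both runs the log2 fold change was 0.89 (SE 0.43, adjusted p = 0.095) and did not pass. With run as a term it was 0.57 (SE 0.18, adjusted p = 0.0098). Within run 1 it was 0.78 (adjusted p = 0.0022), where the scaled negative controls differed by 0.64, and within run 2 it was 0.28 (adjusted p = 0.67), at counts under the limit. With run as a term and the mean negative control subtracted it was 0.94 (SE 0.27, adjusted p = 0.0064). The libraries in which Il10 was detected were all of 1 run.

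Among the receptors, Il17ra, the chain that IL-17A and IL-17F share, separated HDE from saline libraries completely after scaling. Its scaled counts were 86.98, 109.9 and 120.2 (lowest, median, highest) with saline only and 104, 116 and 123 with saline + NNK. The HDE only libraries had 137, 139, 201 and 204, and the HDE + NNK libraries 144, 149.6, 160.1, 169 and 175. All 9 HDE libraries exceeded all 12 saline libraries on this scale, and the means were 164 ± 25.3 (SD, n = 9) and 111 ± 11.9 (SD, n = 12). Raw counts overlapped, at 77 to 183 with HDE and 62 to 190 with saline. Neither unscaled counts nor positive control scaling called Il17ra. The share of all genes separated in this way was not counted. Il17ra rose by 0.57 on the log2 scale (SE 0.10, adjusted p = 2.8e-05 over 388 genes). The value was 0.62 (adjusted p = 0.00021) within run 1 and 0.42 (SE 0.16, adjusted p = 0.061) within run 2, both in the wider fit. Its ligands Il17a and Il17f were at or under background, with Il17a over the limit in 0 libraries and Il17f in 2.

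Il1rl2, the receptor of the IL-36 cytokines, gave scaled counts of 42.0, 55.6 and 64.4 (lowest, median, highest) with saline only and 44.4, 51.7 and 60.0 with saline + NNK. The HDE only libraries had 51.6, 74.6, 103 and 124, and the HDE + NNK libraries 63.0, 66.5, 82.3, 83.6 and 97.7. Of the 9 HDE libraries, 7 lay above every saline library, and the lowest was again the HDE only library of run 2 lane 12. Il1rl2 rose by 0.64 on the log2 scale (SE 0.14, adjusted p = 0.00075). Within run 2 the value was 0.35 (adjusted p = 0.21).

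Il21r, the receptor of IL-21 that pairs with the common gamma chain on B and T cells, had scaled counts of 13.2, 17.9 and 34.9 (lowest, median, highest) with saline only and 13.7, 26.9 and 42.3 with saline + NNK. The HDE only libraries had 19.6, 39.0, 55.5 and 63.7, and the HDE + NNK libraries 32.6, 52.6, 54.9, 64.5 and 70.6. The count exceeded the detection limit in 7 of 9 HDE and 4 of 12 saline libraries. The 6 HDE libraries of run 1 lay above every saline library. Raw counts with saline were 9 to 43, mostly under the limit, so the size of the fold is uncertain. The log2 fold change was 1.06 (SE 0.24, adjusted p = 0.00090) in the wider fit and 1.06 (adjusted p = 0.0013) in a fit of all 766 genes with no minimum. It passed in run 1 (0.93, adjusted p = 0.00046) and in run 2 (0.98, adjusted p = 0.035), and with run as a term and background subtracted it was 1.78 (SE 0.37, adjusted p = 0.00038). Unscaled counts gave 0.61 (adjusted p = 0.062).

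**Figure D2:**
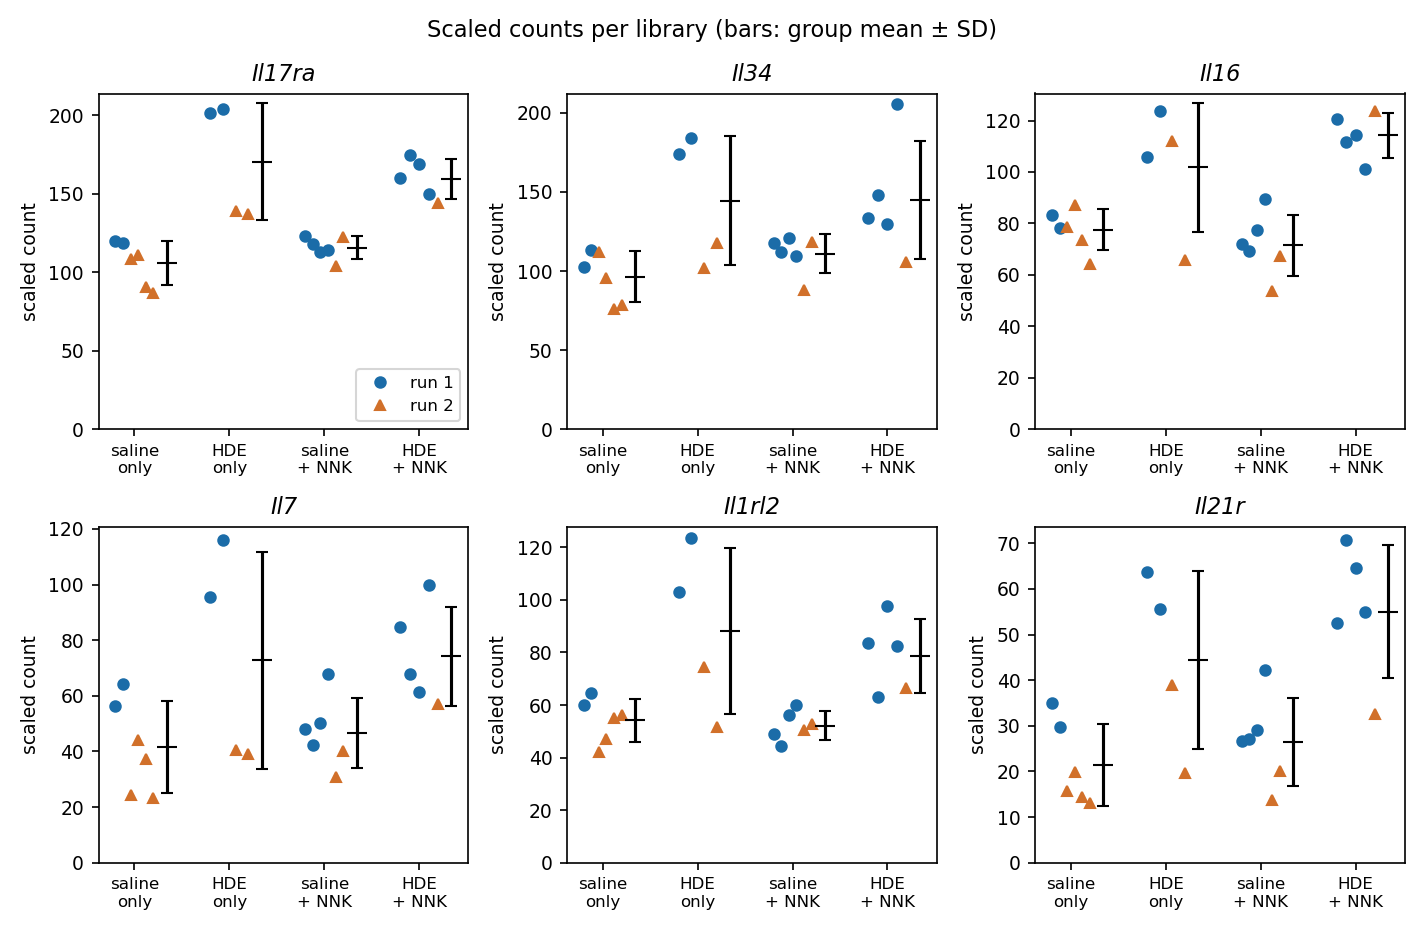
Scaled counts of 6 genes called higher in HDE lungs, with 1 point per library, circles for run 1, triangles for run 2, and bars for the mean ± SD of each group (n = 6, 4, 6 and 5 from left to right). Il17ra is the gene of these 6 whose 9 HDE libraries all lie above the 12 saline libraries after scaling.

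Il2rb, the chain that IL-2 and IL-15 share on T and NK cells, passed narrowly. Scaled counts were 38.5 to 106 with saline only, 43.3 to 119 with saline + NNK, 30.3 to 154 with HDE only and 83.0 to 211 with HDE + NNK. Only 3 HDE libraries exceeded every saline library, and 1 lay below them all. The log2 fold change was 0.63 (SE 0.26, adjusted p = 0.0497). It did not pass with run as a term (0.49, adjusted p = 0.10), and it passed in 6 of the 21 fits that left out 1 library each, with an adjusted p of up to 0.16 in the others. Within run 1 it was 1.03 (adjusted p = 0.0041) and within run 2 0.11 (adjusted p = 0.82).

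Il2rg, the common gamma chain itself, averaged 109.6 ± 28.6 (SD, n = 9) scaled counts with HDE and 85.6 ± 16.0 (SD, n = 12) with saline. The log2 fold change was 0.34 (SE 0.15, adjusted p = 0.066 over 388 genes), so Il2rg did not pass. All 6 HDE libraries of run 1 were above every saline library, while in run 2 the mean was 73.6 with HDE and 78.0 with saline. On the log2 scale the difference was 0.49 (adjusted p = 0.0034 in the wider fit) in run 1 and -0.17 in run 2. Il2rg passed in 3 of the 21 fits that left out 1 library, those without HDE only, run 2 lane 11, HDE only, run 2 lane 12, or HDE + NNK, run 2 lane 9, with log2 values of up to 0.42. The receptors Il10ra (0.45, adjusted p = 0.062), Il12rb2 (0.54, adjusted p = 0.21), Il2ra (0.39, adjusted p = 0.16), Il15ra (0.34, adjusted p = 0.27) and Il3ra (0.25, adjusted p = 0.28) did not pass either. Il10ra, the ligand-binding chain for IL-10, did pass with run as a term (0.37, adjusted p = 0.036).

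The number of members called varied with the run. With run as a term 8 members were called higher, against 42.6% of genes, and 6 of the 7 were among them. Run 1 alone called 13 of 14 higher, against 50.5% of genes, and run 2 alone 2 of 14 (Il16 and Il21r), against 22.1%. Subtracting background called 6 higher, against 38.3%, and subtracting it with run as a term 7, against 39%. Il17ra, Il34, Il16, Il7, Il1rl2 and Il21r were called in each of these settings, save that run 2 alone called only Il16 and Il21r. With run as a term and background subtracted, Il10 was the seventh. TMM scaling called 6, all but Il2rb, against 29.5% of genes, and DESeq2 5, all but Il2rb and Il34, against 28.4%. With HDE only, run 2 lane 12, and saline only, run 2 lane 3, set aside, 8 members were called, against 45.5% of genes. All 7 were among them. The deposited counts carry a flag for the saline library. HDE only, run 1 lane 12, which had the lowest housekeeping mean (496 counts), was kept. Scaling raised its Il17ra count from 81 to 204. Of the 21 fits leaving out 1 library, the one without it gave the lowest log2 values for Il16 (0.49), Il7 (0.58) and Il1rl2 (0.54). Each still passed. Unscaled counts called 0 members in edgeR (1 at an unadjusted p under 0.05), against 12.6% of genes higher, with a median log2 fold change of 0.04 over the 14 members and -0.24 over all genes.

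**Figure D3:**
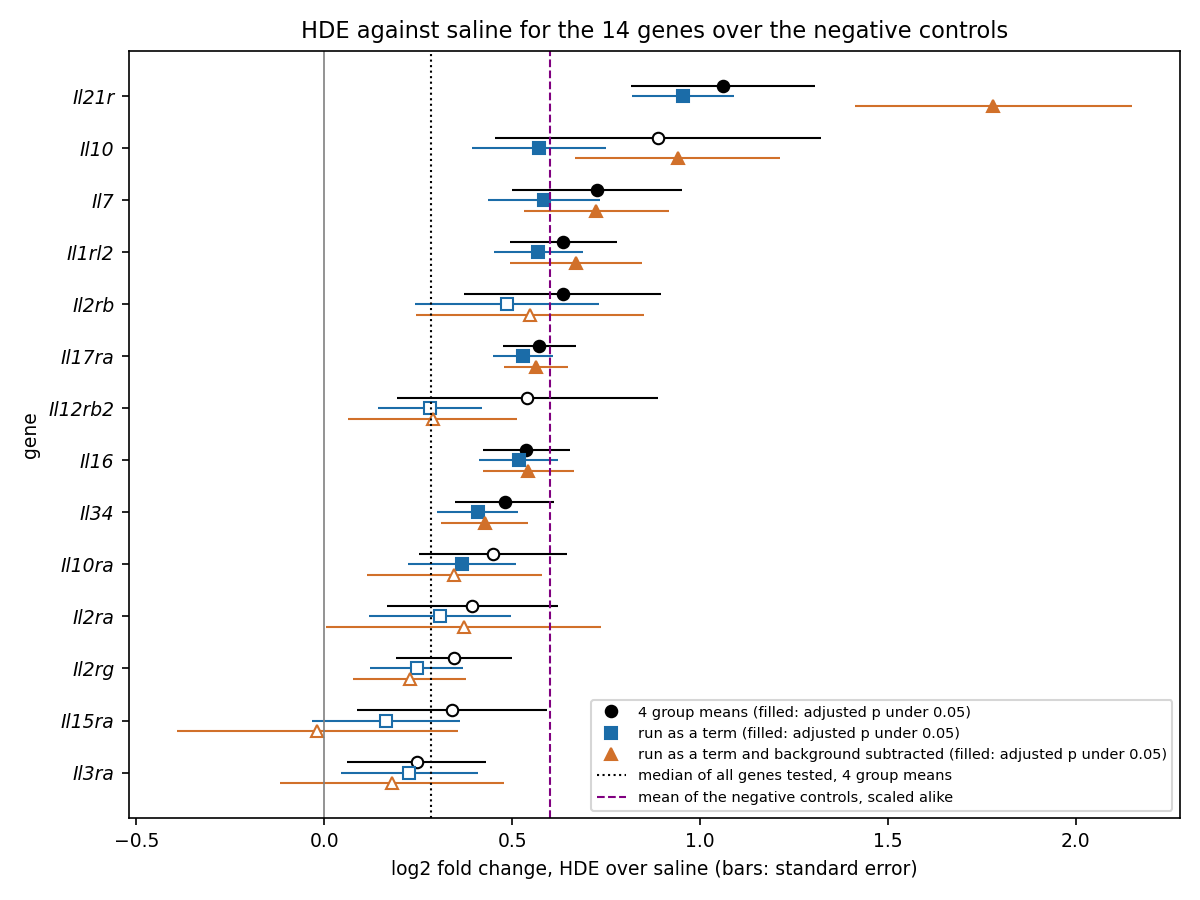
Log2 fold change of HDE over saline with its standard error for the 14 genes over the detection limit, from the fit of 4 group means, with run as a term, and with run and background subtraction together. Filled symbols passed an adjusted p of 0.05, the dotted line marks the median of all 556 genes (0.28) and the dashed line the scaled negative controls (0.60).

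Promoters are shown for 3 of the genes that rose, where the reference table holds a sequence (27 of the 41 members have a window there). Each run is the 250 bases before a transcription start in the C57BL/6J reference (RefSeq, GRCm38.p6), while the mice were A/J. Capitals mark GGAATTTCC, an NF-kB-like motif. The motifs GGAATTTCC, TGAGTCA (AP-1) and TTCNNNGAA (STAT) were searched on both strands, and were chosen after sequences and results had been seen.
Il16, chr7:83655496-83655745, minus strand: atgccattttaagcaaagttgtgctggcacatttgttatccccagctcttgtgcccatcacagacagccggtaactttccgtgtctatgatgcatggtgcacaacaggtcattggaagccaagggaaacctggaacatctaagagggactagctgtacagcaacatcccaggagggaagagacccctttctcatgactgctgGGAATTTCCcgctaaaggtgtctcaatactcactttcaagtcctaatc
Il1rl2, chr1:40324339-40324588, plus strand: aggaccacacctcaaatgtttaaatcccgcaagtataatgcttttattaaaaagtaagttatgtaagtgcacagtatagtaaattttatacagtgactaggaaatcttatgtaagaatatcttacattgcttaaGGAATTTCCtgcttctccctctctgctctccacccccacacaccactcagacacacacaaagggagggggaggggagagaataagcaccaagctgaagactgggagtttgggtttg
Il21r, chr7:125603179-125603428, plus strand: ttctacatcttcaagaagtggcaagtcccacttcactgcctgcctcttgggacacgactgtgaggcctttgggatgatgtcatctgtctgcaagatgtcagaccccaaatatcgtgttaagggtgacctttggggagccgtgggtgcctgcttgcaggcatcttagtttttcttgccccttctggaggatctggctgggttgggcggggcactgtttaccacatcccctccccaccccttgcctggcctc
In Il16 the match begins 48 bases before this start, 1 of 3 annotated starts of the gene, and in Il1rl2 it begins 116 bases before the start. The letters occur in 0.286% of 32851 mouse windows of this length. Il21r held none of the 3 motifs, of which TGAGTCA occurs in 4.46% and TTCNNNGAA in 7.02% of windows. Members that were not called held matches as well. Il18rap, over the limit in 2 libraries and in neither main fit, held GGAATTTCC on the other strand, beginning 19 bases before its start. Another start of Il16, not shown, held TGAGTCA beginning 18 bases before it. A match describes these letters and no binding was measured.

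No effect of NNK on these genes passed the test. HDE against saline was also tested within mice that had and had not received it. With the minimum of 87 counts, 2 of 3 members (Il17ra and Il34) were called higher without NNK, against 30.2% of genes, and 1 of 3 (Il17ra) with NNK, against 29.9%. In mice without NNK, the wider fit called 4 of 14 members higher in HDE lungs, against 27.3% of genes. These were Il17ra (0.68, adjusted p = 0.00070), Il1rl2 (0.68, adjusted p = 0.016), Il21r (1.05, adjusted p = 0.030) and Il34 (0.58, adjusted p = 0.026). With NNK it called 4 of 14 higher, against 30.8% of genes, namely Il16 (0.68, adjusted p = 0.0017), Il17ra (0.46, adjusted p = 0.0076), Il21r (1.07, adjusted p = 0.012) and Il1rl2 (0.59, adjusted p = 0.019). With sex as a term, on the counts raised to 87, the value without NNK was 0.68 (adjusted p = 0.0050) for Il17ra and 0.54 (adjusted p = 0.087) for Il34, which then did not pass. Raising counts altered values of both genes in both exposures. By itself it moved the median HDE change of all 388 genes from 0.15 to 0.20. Sex could not be adjusted for on unaltered counts, so these values are a limited check. For Il16 the value without NNK was 0.40 (adjusted p = 0.082), and for Il34 the value with NNK was 0.38 (adjusted p = 0.097). The differences between these effects did not pass for any member. Over the 14, the interaction ran from -0.45 to 0.37 on the log2 scale, and 0 had an adjusted or an unadjusted p under 0.05, against 0% and 0.719% of all genes. For NNK against none, 0 of 14 members were called and 0 had an unadjusted p under 0.05, against 0% and 2.52% of genes, with log2 differences from -0.11 (Il1rl2) to 0.53 (Il10, SE 0.44).

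Il5ra, the IL-5-binding chain found on eosinophils and some B cells, was over the detection limit in HDE libraries alone. Raw counts were 4 to 38 in the 6 saline only and 15 to 35 in the 6 saline + NNK libraries, with 0 of 12 over their limit. They were 17, 29, 37 and 38 with HDE only, of which 2 were over the limit, and 27, 37, 44, 49 and 52 with HDE + NNK, all 5 over it. Scaled counts averaged 47.2 ± 14.8 (SD, n = 9) and 19.0 ± 10.3 (SD, n = 12). Having passed in 7 libraries only, Il5ra entered neither the fit of 388 nor that of 556 genes. The fit of all 766 genes with no minimum called 34.3% of genes and 8 of 41 members higher, and a minimum mean of 20 counts called 40% of 663 genes and 8 of 24 members. Il5ra was called in both, and in the former its log2 fold change was 1.32 (SE 0.30, adjusted p = 0.0010). It passed within run 1 (1.03, adjusted p = 0.00071), within run 2 (1.68, adjusted p = 0.0082), with unscaled counts (0.81, adjusted p = 0.027) and in each of the 21 fits that left out 1 library. With background subtracted the value was 2.60 (adjusted p = 0.00013). Il5ra was singled out after its values had been seen.

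**Figure D4:**
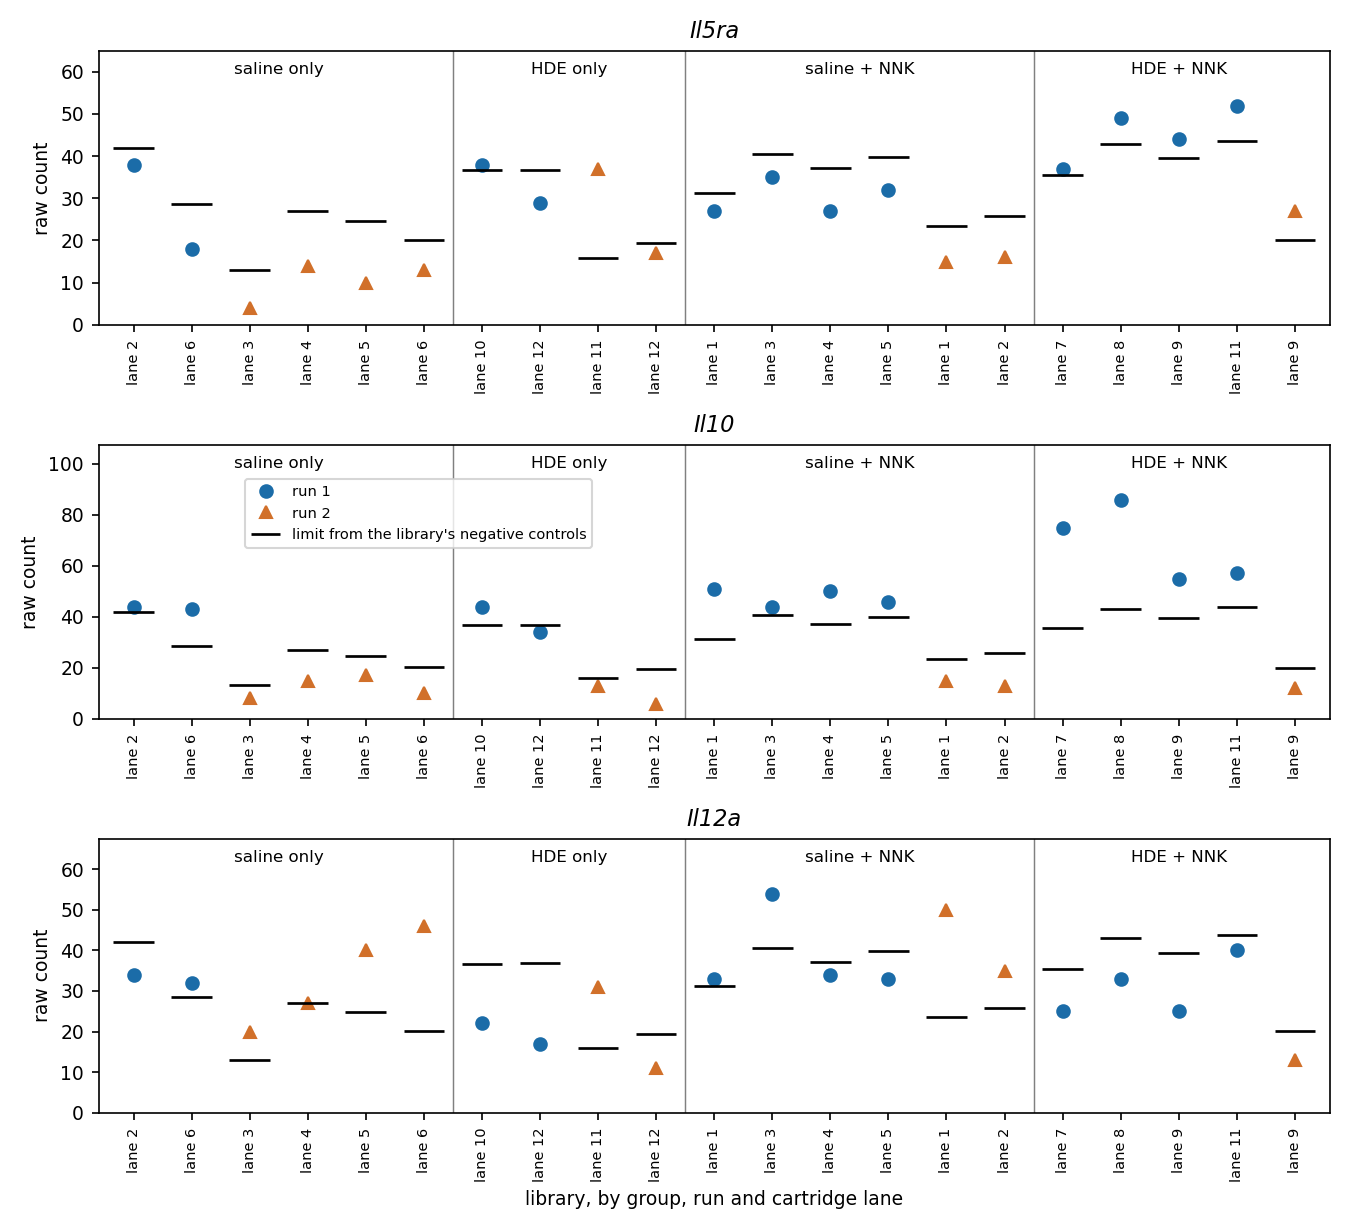
Raw counts of Il5ra, Il10 and Il12a in each library (points), beside the detection limit of that library (black bars), by group and cartridge lane, with run 1 as circles and run 2 as triangles. Il5ra is over the limit in 7 HDE and 0 saline libraries, Il10 in run 1 only, and Il12a in 1 HDE and 8 saline libraries.

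The fit with no minimum also called Il13ra2, a decoy receptor of IL-13, at 1.37 (SE 0.39, adjusted p = 0.0068). Its raw counts, 2 to 33, never exceeded a detection limit, and its scaled counts averaged 23.0 ± 13.2 (SD, n = 9) with HDE, against 26.8 for the negative controls in the same libraries, and ran from 1.10 to 15.7 with saline. Of the ligands near the limit, Il12a, the p35 subunit of IL-12, exceeded it in 1 of 9 HDE and 8 of 12 saline libraries. Its scaled counts averaged 30.4 ± 10.5 (SD, n = 9) and 32.6 ± 4.20 (SD, n = 12), a log2 difference of -0.11 (adjusted p = 0.64). This depended on scaling and background. Il12a was called lower with HDE by TMM scaling (-0.50, adjusted p = 0.0077), with background subtracted (-1.22, adjusted p = 0.038) and with run as a term as well (-1.12, adjusted p = 0.037), while run as a term alone gave -0.18 (adjusted p = 0.35). Il15, a ligand for T and NK cells, exceeded the limit in 2 HDE and 8 saline libraries, with 0.36 (adjusted p = 0.22). Its scaled counts averaged 34.6 with HDE and 26.7 with saline, and with background subtracted the value was -0.07 (adjusted p = 0.93). The limit applies to raw counts. Scaled alike, it averaged 44.2 in HDE and 27.6 in saline libraries, which bears on the numbers of libraries over it in each exposure. Il23a, the specific subunit of IL-23, exceeded it in 1 library of each exposure, both of run 1, and Il19, an IL-10 family ligand, in 2 HDE and 3 saline libraries of run 1, with 0.70 (adjusted p = 0.12).

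Partners of these genes that were no members were read beside them, from a list of 23 genes of which 21 were on the panel and tested in the wider fit. Higher were 9 and lower 0, with a median log2 fold change of 0.32 against 0.28 for all genes. The common beta chain Csf2rb, which Il5ra and Il3ra need for signaling, had 1.45 (adjusted p = 1.6e-07). Ebi3, which joins p28 or p35 to form IL-27 or IL-35, had 1.23 (adjusted p = 0.00067). Cd4, the receptor of Il16, had 1.15 (adjusted p = 0.00019), and Csf1r, the receptor of Il34, 0.32 (adjusted p = 0.014). Jak3, the kinase bound to the common gamma chain, had 0.56 (adjusted p = 0.035), which did not pass with run as a term (0.46, adjusted p = 0.074), whereas Stat3, downstream of IL-10 and IL-21, had -0.0047 (SE 0.08, adjusted p = 0.96) and Csf1, the other ligand of the CSF-1 receptor, -0.01 (adjusted p = 0.95).

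Marker genes of some immune cell types moved with the same exposure, and their part in these results was not tested. Over all 556 genes of the wider fit, 41.7% were higher and 7.37% lower. Summed scaled counts of 9 T cell markers were 290.2 to 719 with HDE and 202 to 403 with saline, and 3 of the 4 that could be tested were higher. Those of 6 B cell markers were 433 to 1332 and 188 to 552, with 3 of 3 tested higher. Those of 6 macrophage and monocyte markers were 51386 to 97083 and 33389 to 43942, with 6 of 6 higher. For NK cells 0 of 2 tested were higher, for dendritic cells 1 of 2, for neutrophils 1 of 3 and for epithelium 1 of 3, while 5 of 5 endothelial markers were lower. The eosinophil markers Prg2 and Ccr3 were near the limit, over it in 7 and 6 HDE libraries and in 1 and 0 saline libraries, with summed scaled counts of 81.2 to 179 with HDE and 10.5 to 53.3 with saline. Mast cell and basophil markers did not reach the filter (0 of 3). No marker on these lists read 0 in any library.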

How the data were processed

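Lung RNA of 21 mice was measured. Per the labels and the study's methods, 50 ng of RNA was hybridized for 16 h to the mouse PanCancer Immune panel, and the authors read it on an nCounter Sprint profiler and exported it with nSolver 4.0. They deposited raw counts of 784 probes (750 endogenous, 20 housekeeping, 8 negative and 6 positive), with no scaling or background subtraction. A second table of counts, deposited with values under 87 raised to 87, carries sex and replicate numbers and served in the alternatives that need them. The headers of the raw table name group, run and lane, not the animal, so groups were taken from them.

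Counts were scaled by the 4 housekeeping genes and fitted as 4 group means in R 4.3.3 by the robust quasi-likelihood method of edgeR 4.0.16, with p adjusted by Benjamini-Hochberg over all genes in a fit and a threshold of 0.05. The genes were 388 averaging 87 raw counts or more, and in a wider fit 556 genes over the mean + 2 SD of their library's negative controls in 11 or more libraries. The 4 scaling genes were not tested. Standard errors are the log2 fold change over the square root of F. Alternatives were TMM, positive control and no scaling, all housekeeping genes, background subtraction, other minimums, DESeq2 1.42.0, limma 3.58.1, run, sex or replicate number as a term, and leaving out each library. The number of animals limits the precision. P-values set each difference against the spread between libraries of a group, which also holds run differences where run is no term.

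On simulated counts the fit of 556 genes recovered 40, 74, 100 and 100% of changes of 1.25, 1.5, 2 and 4-fold, with 7 false calls among 356 unchanged genes. The fit of 388 genes recovered 56, 90, 98 and 100%. The simulated counts held no run difference and no added background, and their scaling was exact. These rates therefore need not hold for members near background. Members, gene lists and tests were chosen with earlier results of these data known. All 41 members are named, with library values or ranges for those called and for Il5ra and Il10. No protein sequences were used. Columns not matched to a group numbered 0.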

Additional observations from a re-analysis of the deposited data

Results flagged for a closer look

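Within the 4 groups, 60 sets of scaled counts were tested for 1 library far from the rest by Dixon's ratio, and 5 stood out. Chance flags about 1 in 20 such groups. Il34 read 87.7 in the saline + NNK library of run 2 lane 1, whose raw count was 160, against 109 to 121 in the other 5. Il2rg read 59.7 in the HDE + NNK library of run 2 lane 9, the single library of that group in run 2, against 116 to 129 in the other 4. The HDE + NNK library of run 1 lane 11 was the highest of its group for a pair of receptors, with 211 for Il2rb against 83.0 to 109.8 and 122 for Il3ra against 52.6 to 67.4. Il2ra read 63.7 in the HDE only library of run 1 lane 10, against 30.3 to 35.6 in the other 3. The HDE effects without and with NNK differed for 0 members by the interaction test.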

How the results depend on the processing

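With the minimum of 87 counts, 2 members were called for HDE against saline, 2 without NNK and 1 with NNK. Positive control scaling and no scaling called 0 in each, as did run 2 alone. A minimum mean of 20 counts called 8, 5 and 5 of 24 members, and no minimum 8, 5 and 6 of 41. Run 1 alone called 3 with NNK. Without NNK, TMM scaling, DESeq2, and sex as a term on the counts raised to 87 each called 1. The replicate numbers were not found to pair mice: over 28 pairs of equal number, r ran from -0.23 to 0.51, and 9 of 21 samples correlated best with their own number. With the number as a replicate block, 2 members were called for HDE (Il17ra 0.49, Il34 0.42), 1 without NNK and 1 with NNK. Leaving out 1 library gave 2 to 3 members for HDE, 1 to 2 without NNK (1 without saline only, run 2 lanes 5 or 6, or HDE only, run 1 lanes 10 or 12), 1 to 3 with NNK (3 without HDE + NNK, run 2 lane 9) and 6 to 10 in the wider fit. That fit called 7 members, 0 with no scaling, 13 in run 1, 2 in run 2, 6 with TMM and 5 with DESeq2, which lost Il34. For NNK and the interaction each setting called 0.

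Members over the limit numbered 14, 6 when all 21 libraries had to pass and 25 when 1 sufficed. With a stricter limit, the mean + 3 SD, Il15ra exceeded it in 9 libraries, Il10 in 8, Il2ra in 6 and Il21r in 5. These are fewer than the 11 needed, so by that limit Il21r would not have entered the wider fit. Of the 3 with a mean of 87 counts, 0 had 87 in every library, so that fit gave no value. Log2 changes below 0 arose with no scaling for Il34 (-0.043), Il2rg (-0.20), Il3ra (-0.31), Il10ra (-0.022), Il2ra (-0.074) and Il15ra (-0.24), and in run 2 alone for Il2rg (-0.17), Il3ra (-0.16), Il2ra (-0.13) and Il15ra (-0.45). Il3ra was also at -0.028 with TMM and -0.068 with DESeq2, and Il15ra at -0.018 with run and background subtraction. The cause of these shifts was not tested. Fits of each run alone in the wider set, run with background subtraction, and those of Il5ra and Il13ra2 were added after seeing the data. Counts under 43.7 lie within the detection limits of run 1, so differences among the 27 other members, Il5ra included, are poorly measured, as are those of Il21r, Il15ra, Il2ra and Il10, whose raw means lay below it.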
